A study of Mus musculus with 24 samples.

Results

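The comparison described here is the genotype by novelty interaction in the CA1 subfield of the mouse hippocampus: for each gene, the log2 change with novelty in mice lacking Kat2a in excitatory neurons minus the log2 change with novelty in control mice. It uses all 24 of the 24 RNA sequencing libraries in the series, placed by the genotype and exposure in their labels. All mice were C57BL/6J, 3 to 5 months old, and every one carried floxed Kat2a (Kat2afl/fl), controls included. The control naive group (Kat2afl/fl, no exposure) holds 6 libraries and the control novelty group (Kat2afl/fl, 15 min of novelty exposure) holds 5. The conditional knockout (cKO) animals were Kat2afl/fl and CamKII_alpha-cre+, with 6 libraries from naive mice and 7 from mice given 15 min of novelty exposure. Cre under the CamKII-alpha promoter acts in excitatory forebrain neurons, so the other cells of the dissected tissue kept an intact gene. No group carried Cre without floxed Kat2a, so an effect of Cre and an effect of the deletion cannot be told apart. The time from exposure to dissection is not given in the sources used here.

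Kat2a encodes a lysine acetyltransferase, the catalytic subunit of the SAGA and ATAC coactivator complexes, which acetylate histones at promoters and enhancers. When an animal explores a new place, synaptic activity raises calcium and cAMP in hippocampal neurons, and kinases then phosphorylate transcription factors such as CREB and SRF at promoters of immediate early genes. Products of these genes, among them Fos and the Egr proteins, are transcription factors that act on later genes, while others such as Arc and Homer1 act at the synapse. The interaction asks whether this induction needs the coactivator: a lost response would give negative values for genes that rise with novelty.

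Libraries held 10.7 M to 35.8 M reads assigned to genes, with a median of 19.01 M (M, 1000000 reads). The shallowest, control naive library 2, had the most extreme score of a principal component (36.3 on the second). Whether each library is a different mouse is not in the labels, and a p-value here therefore reflects spread among libraries, which may be technical. In bulk tissue, fewer cells of a type and less RNA per cell cannot be told apart. Levels are CPM (counts per 1000000 reads, after TMM scaling), log2 differences come from 1 edgeR quasi-likelihood fit over the 24 libraries, and a gene passed at a Benjamini-Hochberg adjusted p below 0.05 over all genes tested. The 95% intervals given for single genes are not adjusted for the number of genes.

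Kat2a itself followed the genotype labels and not the exposure. Kat2a (ENSMUSG00000020918, GRCm38 chromosome 11, 100704746 to 100712465) ranged from 59.3 to 70.3 CPM in control naive libraries, with a median of 62.7. The 5 control novelty libraries measured 63.3, 57.5, 60.2, 64.2 and 56.0 CPM. In cKO mice the naive libraries ranged from 32.5 to 39.3 CPM with a median of 36.3, and the novelty libraries from 31.2 to 38.3 with a median of 35.0. No cKO library reached the level of any control library. The cKO mean was 56.9% of the control mean in naive mice (exact two-sided permutation p = 0.00216) and 58.4% after novelty (exact two-sided permutation p = 0.00126). The interaction of Kat2a was 0.04 on the log2 scale (95% interval -0.12 to 0.19). Counts cover the whole gene, and whether they include the deleted part is not known.

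No gene passed for the interaction in edgeR. Of 16744 genes tested 0 (0%) passed, and the smallest adjusted p was 1. An unadjusted p below 0.05 was found in 688 genes (4.11%), 403 of them with a more positive and 285 with a more negative novelty effect in cKO mice. DESeq2 also called 0 genes, with 792 at an unadjusted p below 0.05, and limma-voom called 0, with 760. A missed threshold does not show that responses were alike, so the size of the difference was tested as well. For 12721 genes (76.0%) the interaction lay within 1.5-fold in either direction (2 one-sided tests on the edgeR fit, adjusted p below 0.05). It lay within 0.32 on the log2 scale for 8137 genes and within 2-fold for 15311. A response smaller than 1.5-fold could be absent in cKO mice and its gene still be placed within 1.5-fold. This limit holds for every share within 1.5-fold given below.

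How small a difference these libraries could exclude depended on the expression level. The median 95% interval of the interaction reached 0.237 on the log2 scale to either side of the estimate, a factor of 1.18. Below a mean of 50 reads per library the median half-width was 0.702 (a factor of 1.63), and 13.6% of 3503 genes were placed within 1.5-fold. Between 200 and 1000 reads it was 0.199, and 95.3% of 5629 genes were placed within 1.5-fold. Above 5000 reads it was 0.138 (a factor of 1.1), for 718 genes. The share of genes at an unadjusted p below 0.05 was 5.62% in the lowest and 1.81% in the highest of these classes.

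**Figure D1:**
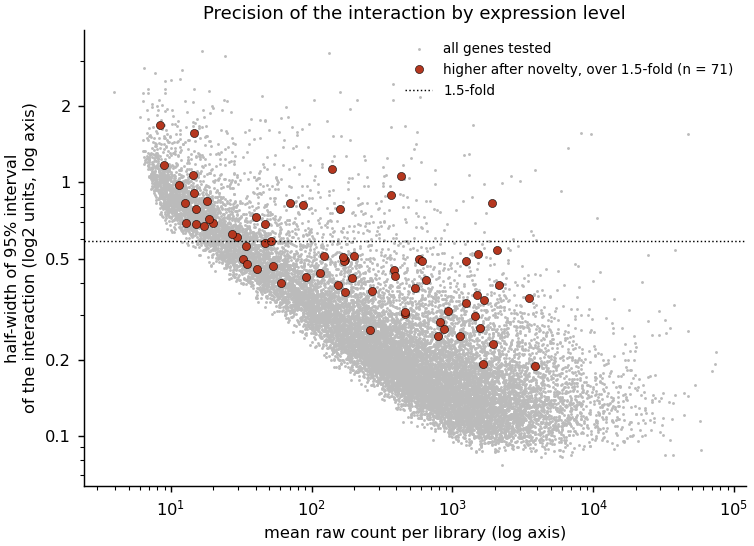
Half-width of the 95% interval of the interaction (log2 units, log axis) against the mean raw count per library (log axis) for all genes tested (grey) and for the 71 genes that rose over 1.5-fold in the novelty average (red); the dotted line marks 1.5-fold. Intervals narrow with expression, and the red genes lie high in the cloud, with a median half-width of 0.495 against 0.237 for all genes.

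Genes that respond to novelty were chosen from the average of both genotypes, which treats them alike. In that average 741 genes (4.43%) were higher and 356 (2.13%) lower after novelty, so 67.5% of them were higher. Under upper-quartile scaling the higher share was 53.9%. Within single genotypes, 305 genes passed in controls (1.82%) and 510 in cKO mice (3.05%), and the 195 that passed in both had the same sign in both. The count in controls fell to 158 without control novelty library 2 and to 183 without control novelty library 5. A larger count in one genotype is not a larger response, since the groups differ in size and spread; the difference between the responses is the interaction, for which no gene passed.

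Median responses were close in size in both genotypes. Across the 741 genes that rose, the median log2 change was 0.196 in controls and 0.209 in cKO mice, and the median interaction was 0.010 against 0.002 over all genes tested. In 402 of the 741 (54.3%) the estimated rise was larger in cKO mice, against 50.6% of all genes tested, and the share was 49.4% without control novelty library 3. Of the 741, 41 (5.53%) had an unadjusted interaction p below 0.05, near the 4.11% of all genes, and 682 (92%) were within 1.5-fold, against 76.0%. Their intervals were also narrower, at a median half-width of 0.172 against 0.237 over all genes, so the larger share within 1.5-fold does not show more similar responses. Only 71 of the 741 rose over 1.5-fold in the average, so a smaller response could be lost and its gene still be placed within the bound. Ppp1r16b, at 1.22-fold in controls and 0.998-fold in cKO mice, was so placed (equivalence test on the edgeR fit, adjusted p = 0.00108). Across the 356 genes that fell, the medians were -0.249 in controls and -0.228 in cKO mice, and 301 (84.6%) were within 1.5-fold.

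The interaction of genes that rose most was measured with wider intervals than that of all genes, at a median half-width of 0.495 against 0.237. The 71 genes that rose over 1.5-fold in the average had a median log2 change of 0.802 in controls and 0.943 in cKO mice, with a median interaction of 0.09 and an interquartile range from -0.111 to 0.309. Of these, 44 (62.0%) had a larger estimate in cKO mice, against 50.6% of all genes tested, and 8 (11.3%) had an unadjusted interaction p below 0.05, against 4.11%. Within 1.5-fold were 27 (38.0%), against 76.0% of all genes, and within 2-fold 53. A coarser question, on the log2 scale and not the fold scale, could be answered for more of them. The 95% interval put the cKO log2 change above 50% of the control log2 change in 50 of the 71. It put that change below 50% in 0, with 21 undecided. Among all 741 genes that rose, the cKO log2 change was placed above 50% of the control log2 change in 291 and below in 1. Of the 356 that fell, 83 were placed above 50% and 0 below. Among all 16744 genes tested, 1002 were placed above and 170 below. The rest of each set were undecided. The choice by the average of both genotypes favours genes that respond in both.

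**Figure D2:**
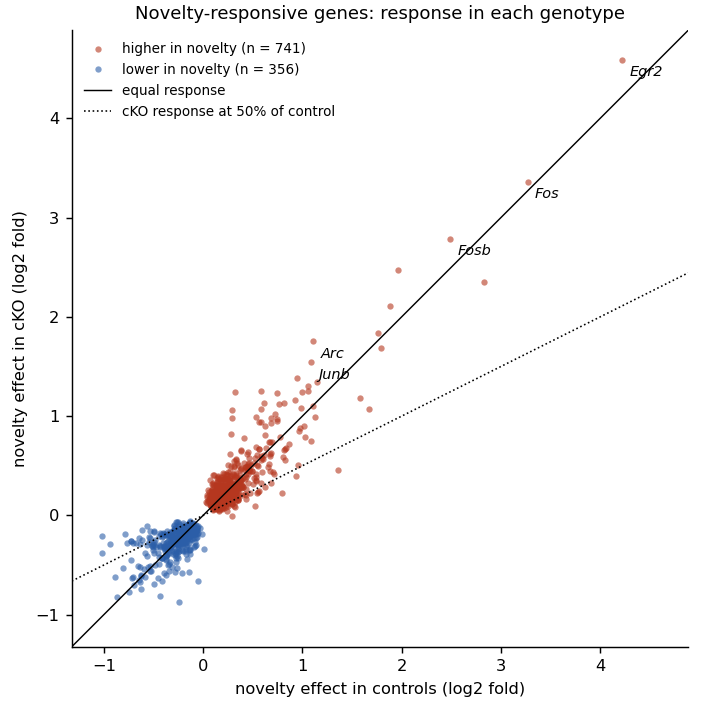
Log2 change with novelty in controls (horizontal) and in cKO mice (vertical) for the 741 genes higher (red) and 356 lower (blue) in the average of both genotypes, 1 point per gene. The solid line marks equal responses and the dotted line a cKO log2 change at 50% of the control log2 change. Egr2, Fos and Fosb lie 0.37, 0.09 and 0.29 from the solid line.

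Of 28 immediate early transcription factor genes, 21 rose in the novelty average, 16 passed as higher in controls and 17 in cKO mice. Over all genes tested, 4.43% were higher in the average. In either direction, 1.82% passed in controls and 3.05% in cKO mice. These shares are the background for the lists below as well. None of the 28 passed for the interaction in edgeR. The median log2 change was 0.64 in controls and 0.68 in cKO mice. The median interaction was 0.08, against 0.002 over all genes tested, with a range from -0.39 to 1.20. Of the 28, 13 (46.4%) were placed within 1.5-fold, against 76.0% of all genes. The median half-width in the list was 0.446, against 0.237 over all genes. Among the 21 that rose, 13 had a larger estimate in cKO mice and 8 were placed within 1.5-fold. In 13 the interval put the cKO log2 change above 50% of the control log2 change. An unadjusted p below 0.05 was found in 2 of the 28, Fosl2 and Npas4 (7.14%, against 4.11% of all genes).

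The promoters of 3 of these genes are printed as the 250 bases before the start of the transcript, from RefSeq on GRCm38.p6. They were chosen because Fos had one of the strongest responses in both genotypes, and Npas4 and Fosl2 the smallest interaction p in the list. Capitals mark the letters TGACG or CGTCA, the core of the site bound by CREB, read on either strand. Fos lies on chromosome 12 (window chr12:85473640-85473889, plus strand), Npas4 on chromosome 19 (chr19:4989972-4990221, minus strand) and Fosl2 on chromosome 5 (chr5:32136222-32136471, plus strand).
Fos: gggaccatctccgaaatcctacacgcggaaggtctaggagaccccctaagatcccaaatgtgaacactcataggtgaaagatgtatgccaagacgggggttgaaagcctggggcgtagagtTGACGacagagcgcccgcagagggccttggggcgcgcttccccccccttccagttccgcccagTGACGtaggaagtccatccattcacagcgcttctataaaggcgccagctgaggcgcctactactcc
Npas4: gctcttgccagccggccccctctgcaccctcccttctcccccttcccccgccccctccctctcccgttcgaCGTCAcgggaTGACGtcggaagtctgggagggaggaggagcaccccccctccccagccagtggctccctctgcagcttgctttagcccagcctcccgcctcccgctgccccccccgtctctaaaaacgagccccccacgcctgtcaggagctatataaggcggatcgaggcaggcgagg
Fosl2: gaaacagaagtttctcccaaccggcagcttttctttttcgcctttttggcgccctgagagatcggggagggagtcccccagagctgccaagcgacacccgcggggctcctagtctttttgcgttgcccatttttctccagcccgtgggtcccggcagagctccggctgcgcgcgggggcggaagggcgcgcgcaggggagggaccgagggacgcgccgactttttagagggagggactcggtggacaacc

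The Fos and Npas4 windows each held 2 such cores and the Fosl2 window none, which says only that these letters are not in that window. Neither the full site TGACGTCA, which holds a core on each strand, nor the CArG box bound by SRF was found in these 3 windows. Bases further upstream were not searched, so these genes may still have such sites outside the windows. Among windows of the same length, a core stood in 5347 of 27025 promoters (19.8%) and a full site in 478 (1.77%). Among the 11192 tested genes with a window, 29.2% held a core and 2.89% a full site. Of the 558 matched genes that rose in the novelty average, 43.7% held a core and 7.35% a full site. Of the 456 matched genes with an unadjusted interaction p below 0.05, 28.1% held a core and 2.85% a full site. These shares are descriptions with no test.

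Fos encodes a subunit of the AP-1 transcription factor. Fos (ENSMUSG00000021250, chromosome 12, 85473890 to 85477273) ranged from 2.02 to 5.78 CPM in control naive libraries (median 2.74) and measured 20.1, 38.0, 23.7, 35.5 and 39.4 CPM in the control novelty libraries. In cKO mice it ranged from 2.07 to 6.30 CPM in naive libraries (median 2.97) and from 24.8 to 55.0 CPM in novelty libraries (median 31.2). Every novelty library lay above every naive library, and the novelty groups of both genotypes overlapped. Fos rose 9.64-fold in controls (edgeR adjusted p = 1.94e-06) and 10.3-fold in cKO mice (edgeR adjusted p = 1.58e-07), with an interaction of 0.09 (SE 0.43, 95% interval -0.81 to 0.98). The Fos estimate ran from -0.22 to 0.35 when 1 library was left out and was negative in 5 of the 24 fits. The interval of the full fit allows a cKO fold change from 0.572 to 1.98 times the control fold change.

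Egr2 and Egr1, which encode zinc finger transcription factors, also rose in both genotypes. Egr2 (chromosome 10, 67535475 to 67542188) ranged from 0.252 to 1.13 CPM in control naive and from 0.345 to 1.01 CPM in cKO naive libraries. After novelty it measured 9.15, 16.6, 6.29, 12.5 and 18.4 CPM in controls and 8.23 to 20.8 CPM in cKO mice (median 13.1). The naive and novelty ranges did not overlap in either genotype. Egr2 rose 18.6-fold in controls and 24-fold in cKO mice, and its interaction of 0.37 had a wide interval (-0.76 to 1.5). Egr1, with far more reads, rose 3.38-fold in controls and 3.56-fold in cKO mice, and its interaction of 0.07 (-0.28 to 0.42) was placed within 1.5-fold (equivalence test on the edgeR fit, adjusted p = 0.00484). Fosb rose 5.61-fold in controls and 6.88-fold in cKO mice, with an interaction of 0.29 (-0.16 to 0.75).

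For Fos and Egr2 the sign of the interaction differed between libraries numbered 1 to 3 and libraries numbered 4 and above in their titles, a number whose meaning the labels do not give. The Fos interaction was -0.69 (SE 0.51) among the former and 0.71 (SE 0.58) among the latter, and that of Egr2 was -0.71 (SE 0.88) and 0.93 (SE 0.54). Fosb (-0.09 and 0.49) and Junb (-0.37 and 0.61) also had a negative and a positive value. None of these 8 values passed in edgeR, and the difference between the 2 sets of libraries was not tested. Opposite signs also occurred outside this list, as for Kcna4 (0.14 and -0.29) and Chrm4 (-0.07 and 0.48). Fosl2 and Homer1 kept the same sign in both sets. The share of all genes with opposite signs was not computed, so the pattern is not shown to be particular to immediate early genes.

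**Figure D3:**
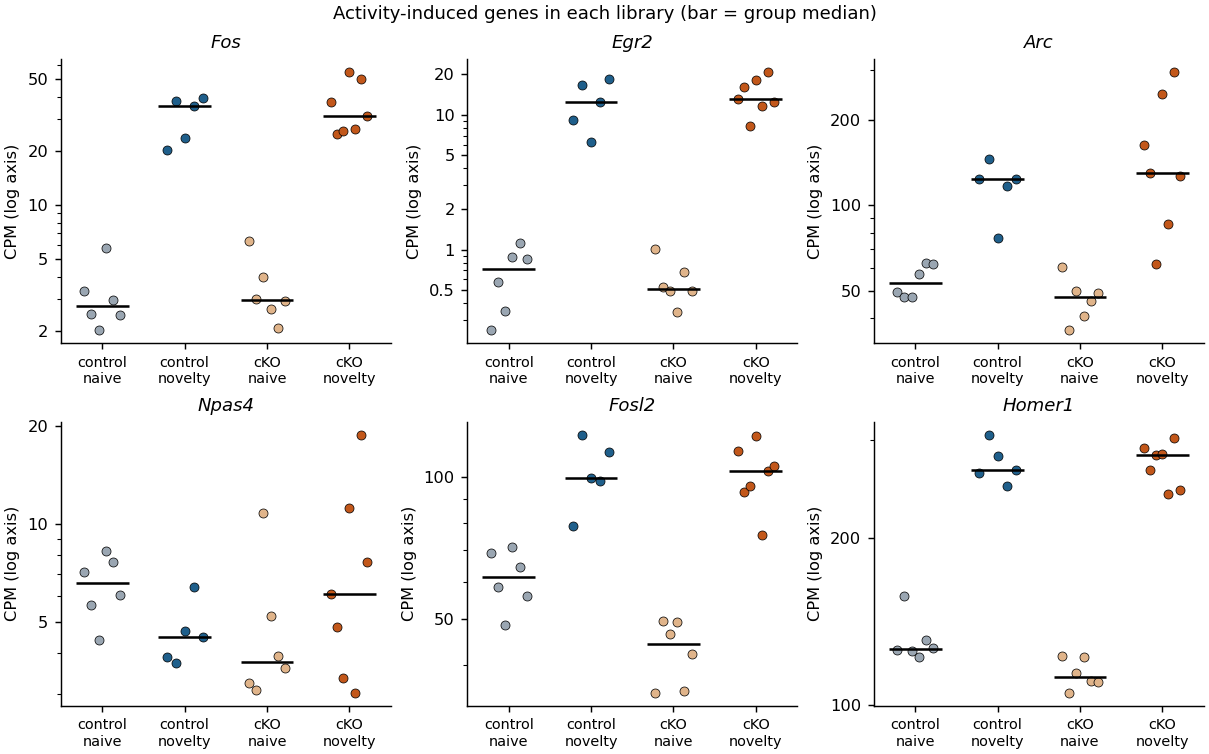
CPM in each library (log axes) for Fos, Egr2, Arc, Npas4, Fosl2 and Homer1 in the 4 groups, 1 point per library, with the group median as a bar. Fos, Egr2 and Homer1 separate naive from novelty libraries fully in both genotypes, Fosl2 starts from a lower naive level in cKO mice, and Arc and Npas4 spread widely in cKO novelty libraries.

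Fosl2, another AP-1 subunit gene, rose more in cKO mice in the estimate, from a lower naive level. Fosl2 (ENSMUSG00000029135, chromosome 5, 32136472 to 32157831) ranged from 48.5 to 71.0 CPM in control naive (median 61.5) and from 35.0 to 49.7 CPM in cKO naive libraries (median 44.4). After novelty it measured 78.8, 122.9, 99.6, 97.8 and 113.0 CPM in controls and 75.3 to 121.8 CPM in cKO mice (median 102.8). The novelty groups overlapped fully, whereas in naive mice 4 of 6 cKO libraries lay below every control library. The interaction was 0.49 (SE 0.17, 95% interval 0.13 to 0.85), with an unadjusted p below 0.05 and an edgeR adjusted p of 1. Between genotypes Fosl2 differed by -0.51 in naive mice (edgeR adjusted p = 0.031), where 322 genes passed (1.92%), and by -0.02 after novelty (edgeR adjusted p = 0.951), where 787 passed (4.70%). Its interaction was 0.42 among libraries numbered 1 to 3 and 0.55 among those numbered 4 and above.

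Npas4, a transcription factor gene specific to neurons and induced by calcium entry, had the largest interaction in the list and did not rise in the novelty average (0.08, edgeR adjusted p = 0.938). Npas4 (ENSMUSG00000045903, chromosome 19, 4984355 to 4989971) ranged from 4.38 to 8.23 CPM in control naive libraries (median 6.57) and measured 3.91, 3.74, 4.69, 6.39 and 4.49 CPM in control novelty libraries. In cKO mice it ranged from 3.08 to 10.8 CPM in naive (median 3.76) and from 3.02 to 18.8 CPM in novelty libraries (median 6.10). The 4 groups overlapped, and the 2 highest values came from cKO novelty libraries 6 and 4, which were also the highest for Arc and, with the order reversed, for Fos. The interaction was 1.20 (SE 0.55, 95% interval 0.05 to 2.34), with an unadjusted edgeR p below 0.05 and an adjusted p of 1. The unadjusted p was below 0.05 in 11 of 24 fits that each left out 1 library, and the estimate was 0.23 among libraries numbered 1 to 3 and 1.71 among those numbered 4 and above.

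**Figure D4:**
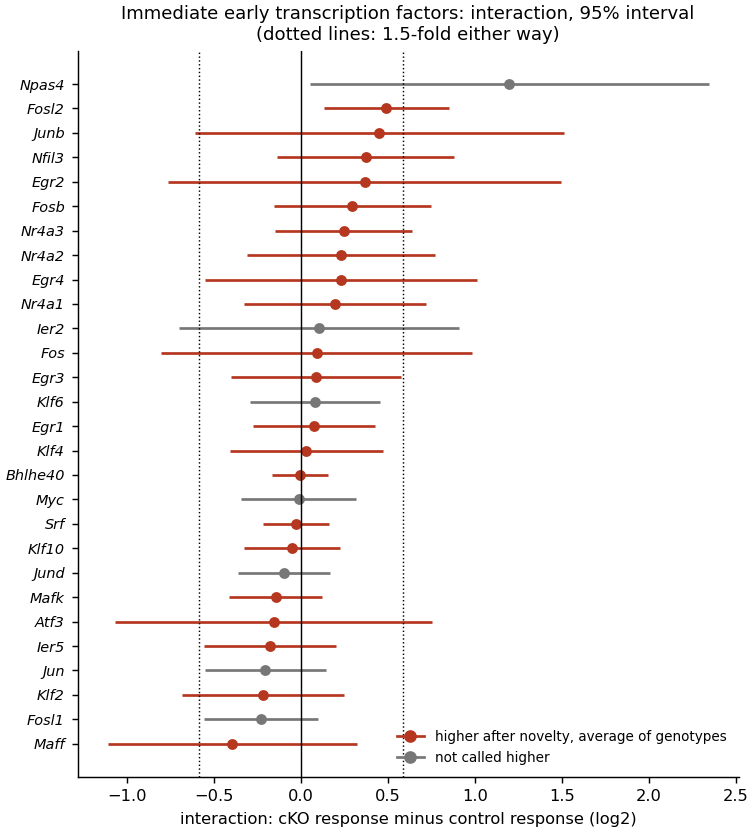
Interaction (cKO response minus control response, log2) with its unadjusted 95% interval for the 28 immediate early transcription factor genes, ordered by estimate, with genes that rose in the novelty average in red and dotted lines at 1.5-fold either way. Fosl2 and Npas4 are the genes whose intervals exclude 0, and the intervals of Fos, Egr2 and Junb reach past both dotted lines.

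Precision varied within the list. Bhlhe40, a transcriptional repressor gene shared with the clock list, was lower in cKO mice in both states, by -0.28 when naive (edgeR adjusted p = 0.00583) and by -0.29 after novelty (edgeR adjusted p = 0.00305). Bhlhe40 rose 1.38-fold in controls and 1.37-fold in cKO mice, with an interaction of -0.004 (-0.16 to 0.16), so the genotype difference was the same size before and after novelty within this interval. Nr4a1, a nuclear receptor gene named outside the rule for named genes, rose 2.22-fold in controls and 2.54-fold in cKO mice, with an interaction of 0.20 (-0.33 to 0.72). Junb, an AP-1 subunit gene, rose in the novelty average (edgeR adjusted p = 0.00207), but its interaction of 0.45 ran from -0.61 to 1.51.

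Of 25 synaptic and secreted effector genes, 10 rose in the novelty average, 8 passed as higher in controls and 10 in cKO mice. Their median interaction was 0.02, 15 of 25 were placed within 1.5-fold, against 76.0% of all genes, and 2 (8%, against 4.11%) had an unadjusted p below 0.05, Homer1 and Amigo3. Homer1, which encodes a postsynaptic scaffold whose short form is induced by activity, ranged from 122.1 to 156.9 CPM in control naive (median 126.1) and from 105.0 to 122.2 CPM in cKO naive libraries (median 112.0). After novelty Homer1 measured 262.1, 306.9, 280.6, 247.6 and 265.0 CPM in controls and 239.3 to 302.7 CPM in cKO mice (median 281.7). The novelty groups overlapped fully and the naive groups only at their edge. Homer1 rose 2.08-fold in controls and 2.39-fold in cKO mice, with an interaction of 0.20 (SE 0.09, 95% interval 0.01 to 0.39) that was also placed within 1.5-fold (equivalence test on the edgeR fit, adjusted p = 0.000272).

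Arc, whose product regulates AMPA receptors at synapses and which is named outside the rule, spread most in cKO mice after novelty. Arc ranged from 47.5 to 62.7 CPM in control naive and from 36.3 to 60.9 CPM in cKO naive libraries. After novelty it measured 123.7, 145.3, 77.0, 117.4 and 123.5 CPM in controls and 163.6, 130.7, 62.4, 247.4, 85.9, 295.5 and 126.8 CPM in cKO mice. The 3 highest values were from cKO mice and the lowest value after novelty was too. Arc rose in cKO mice (3.37-fold, edgeR adjusted p = 0.000539), had 2.15-fold in controls (edgeR adjusted p = 0.0568), and had an interaction of 0.65 (SE 0.40, 95% interval -0.18 to 1.47). Amigo3, an adhesion molecule gene, did not pass in controls (1.02-fold) and passed in cKO mice (1.43-fold, edgeR adjusted p = 0.04), with an interaction of 0.48 (0.05 to 0.92) that did not pass. Gpr3, a constitutively active receptor gene, rose 1.61-fold in controls and 1.97-fold in cKO mice, and Arl5b rose 1.6-fold and 1.66-fold.

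Of 21 negative feedback genes of kinase signalling, 14 rose in the novelty average, 12 in controls and 12 in cKO mice. The median interaction was 0.04, and 17 (81.0%) were placed within 1.5-fold, near the 76.0% of all genes. Dusp5, a phosphatase gene that turns off ERK, rose 2.15-fold in controls and 2.15-fold in cKO mice, with an interaction of -0.002 (SE 0.21, 95% interval -0.43 to 0.43). Sik1, a kinase gene that restrains CREB coactivators, rose 2.08-fold and 2.47-fold, and Spry4 rose 1.38-fold and 1.5-fold. Nfkbia, which encodes the NF-kappa-B inhibitor and is also in the glucocorticoid and NF-kappa-B lists, was the 1 member with an unadjusted interaction p below 0.05 (4.76% of the list, against 4.11% of all genes). Nfkbia ranged from 11.8 to 17.1 CPM in control naive (median 13.9) and from 13.5 to 18.3 CPM in cKO naive libraries (median 16.3), with medians of 19.1 and 18.1 CPM after novelty. Nfkbia rose 1.48-fold in controls (edgeR adjusted p = 0.00264) and had 1.19-fold in cKO mice (edgeR adjusted p = 0.206), and its interaction was -0.32 (SE 0.14, 95% interval -0.61 to -0.03).

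Genes induced by glucocorticoids, the stress hormones, were the response group with the most negative median interaction, at -0.11 over 17 genes. Of these, 11 rose in the novelty average, 5 of the 11 more in cKO mice, and 14 of 17 (82.4%) were placed within 1.5-fold, near the 76.0% of all genes. Klf9, a glucocorticoid-induced transcription factor gene, ranged from 137.4 to 163.0 CPM in control naive (median 151.0) and from 135.1 to 171.2 CPM in cKO naive libraries (median 136.3). After novelty the Klf9 medians were 186.1 CPM in controls and 158.8 CPM in cKO mice, and every control novelty library lay above every cKO novelty library. The share of all genes separated in this way was not computed. Between genotypes after novelty 787 genes (4.70%) passed. Klf9 rose 1.26-fold in controls (edgeR adjusted p = 0.00163) and had 1.11-fold in cKO mice (edgeR adjusted p = 0.147), with an interaction of -0.18 (-0.34 to -0.01). Klf9 and Nfkbia were the 2 members (11.8%, against 4.11% of all genes) with an unadjusted p below 0.05. The clock gene Per1 rose 1.97-fold and 1.84-fold, Tsc22d3 1.82-fold and 1.64-fold, and Errfi1, a brake on EGF receptors, 1.71-fold and 1.73-fold in controls and cKO mice.

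Clock genes and chaperone genes include further members that respond to novelty. Of 19 clock genes 5 rose, none had an unadjusted interaction p below 0.05 in edgeR, and 16 (84.2%, against 76.0% of all genes) were within 1.5-fold; Per2 rose 1.48-fold in controls and 1.59-fold in cKO mice. Of 28 genes of the heat shock and unfolded protein responses, 13 rose, 9 of the 13 more in cKO mice, and 26 (92.9%) were within 1.5-fold; the median half-width was 0.308 in the clock list and 0.17 in this one, against 0.237 over all genes. The chaperone gene Dnajb1 rose 1.45-fold and 1.53-fold in controls and cKO mice, and Hspa5, the chaperone of the endoplasmic reticulum, 1.24-fold and 1.33-fold. Xbp1, a transcription factor gene of the unfolded protein response, had an interaction of 0.16 (0.02 to 0.29), rising from a median of 68.8 to 73.2 CPM in controls and from 61.3 to 76.1 CPM in cKO mice. Bag3, a co-chaperone gene, had 0.27 (0.02 to 0.53). Xbp1 and Bag3 were the 2 members (7.14%, against 4.11% of all genes) with an unadjusted p below 0.05, and both interactions were placed within 1.5-fold.

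Genes that act upstream of the response, such as kinases and receptors, gave no call for the interaction either. Of 25 genes of the CREB pathway 24 (96.0%, against 76.0% of all genes) were within 1.5-fold, with a median interaction of -0.01. Crem, which encodes cAMP-responsive activators and repressors, rose 1.28-fold in both genotypes, with an interaction of 0.002 (-0.22 to 0.22). Camkk2, a kinase gene of the calcium pathway, was the 1 member of 25 with an unadjusted p below 0.05 (-0.16, 95% interval -0.30 to -0.02). Of 22 glutamate receptor genes 0 had an unadjusted interaction p below 0.05 in edgeR and 0 passed, and 19 (86.4%) were within 1.5-fold, against 76.0%. Of 29 receptor genes for serotonin, acetylcholine, dopamine and noradrenaline 23 (79.3%) were, near the 76.0% of all genes. In that list Htr1a, an inhibitory serotonin receptor gene, had -0.22 (-0.42 to -0.02), with medians of 49.3 and 56.4 CPM in control naive and novelty libraries and 38.3 and 39.6 CPM in cKO libraries. Adrb1, a noradrenaline receptor gene, had 0.24 (0.02 to 0.46).

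Subunits of the Kat2a complexes and related enzymes had median half-widths of 0.154 and 0.155, against 0.237 over all genes. Of 33 SAGA and ATAC genes, Kat2a included, 32 (97.0%, against 76.0% of all genes) were within 1.5-fold, 2 rose in the novelty average, and the median interaction was 0.03. Atxn7, a SAGA subunit gene, rose 1.21-fold in controls and 1.31-fold in cKO mice (interaction 0.12, -0.06 to 0.29). The ATAC subunit genes Yeats2 (0.20, 0.02 to 0.38) and Mbip (0.215, 0.003 to 0.43) had unadjusted p below 0.05. All 29 other lysine acetyltransferase and deacetylase genes were within 1.5-fold, and none of the 29 had an unadjusted p below 0.05 in edgeR, nor did any pass. Among them Ep300, the gene of the CREB coactivator p300 and also in the CREB list, had an interaction of 0.01 (-0.10 to 0.13), and Crebbp had 0.002 (-0.13 to 0.14).

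The remaining lists also gave no call. Of 22 tested NF-kappa-B genes 20 (90.9%, against 76.0% of all genes) were within 1.5-fold, and Tab1 fell to 0.829-fold in controls and 0.778-fold in cKO mice. Of 42 nuclear genes of the respiratory chain 41 (97.6%, against 76.0% of all genes) were within 1.5-fold, with a median interaction of -0.06. Their median half-width was 0.157, against 0.237 over all genes. The interaction was positive in 8 of the 42, against 50.7% of all genes. Of 48 ribosomal protein genes 40 (83.3%, against 76.0% of all genes) were, with a median of -0.05 and 4 (8.33%, against 4.11%) at an unadjusted p below 0.05, among them Rps12 (-0.31) and Rpl10 (0.37), which have near-identical copies and are uncertain. Of 23 tested neighbours of Kat2a on chromosome 11, 19 (82.6%, against 76.0% of all genes) were within 1.5-fold. Stat5a, at 0.669 to 1.94 CPM over all 24 libraries, had -0.71 (-1.33 to -0.09).

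Genes were then named by the smallest interaction p, 8 in each direction, among those with a mean of at least 50 reads. These are the extreme values of 13242 such genes, their p-values did not survive adjustment (edgeR adjusted p = 1 for each), and a choice of extremes tends to overstate estimates. Their interactions ran from 0.22 to 0.53 on the positive and from -0.49 to -0.22 on the negative side. All 16 kept their sign and an unadjusted p below 0.05 in each of the 24 fits that left out 1 library. Those fits reuse the libraries from which the genes were chosen, so they are no independent support for the differences. A choice by small interaction p also favours groups whose libraries do not overlap, and the share of all genes with such groups was not computed.

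On the positive side, Mut, which encodes the mitochondrial methylmalonyl-CoA mutase, had the smallest p. Mut (ENSMUSG00000023921, chromosome 17, 40934685 to 40961989) ranged from 54.4 to 90.9 CPM in control naive libraries (median 71.5) and measured 61.5, 56.8, 55.9, 52.5 and 53.9 CPM in control novelty libraries. In cKO mice it ranged from 58.0 to 75.3 CPM in naive (median 69.4) and from 66.3 to 80.4 CPM in novelty libraries (median 75.8). Every cKO novelty library lay above every control novelty library, while the naive groups overlapped. The interaction was 0.51 (SE 0.12, 95% interval 0.26 to 0.76), and Mut fell in controls (0.778-fold, edgeR adjusted p = 0.0347). The smallest edgeR adjusted p over the 24 fits that left out 1 library, 0.107 for Mut, came without control naive library 3.

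Mest, an imprinted gene of the hydrolase family, rose in the novelty average and 1.32-fold in cKO mice (edgeR adjusted p = 2.17e-05), against 1.11-fold in controls (edgeR adjusted p = 0.272). Mest ranged from 26.9 to 31.2 CPM in control novelty and from 30.7 to 37.6 CPM in cKO novelty libraries, and the naive medians were 26.4 and 26.1 CPM. Its interaction was 0.25 (0.09 to 0.41). The other positive genes were Lmbr1l (0.53), Frem1 (0.47), an extracellular matrix gene, Arntl2 (0.43), a paralog of the clock gene Arntl, Aloxe3 (0.42), a lipoxygenase gene, Supt20 (0.30), and Nop56 (0.22), a small nucleolar ribonucleoprotein gene. Lmbr1l rose in cKO mice (1.38-fold, edgeR adjusted p = 0.00708) and Aloxe3 fell in controls (0.783-fold, edgeR adjusted p = 0.0386). The Supt20 value belongs to ENSMUSG00000095832, a second gene model with the symbol of a SAGA subunit; the first model had 0.05 (-0.17 to 0.26), so the value is uncertain.

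On the negative side, Pla2g7, which encodes the platelet-activating factor acetylhydrolase, had the smallest p. Pla2g7 (ENSMUSG00000023913, chromosome 17, 43568098 to 43612201) had medians of 164.3 and 180.1 CPM in control naive and novelty libraries and of 163.1 and 146.5 CPM in cKO libraries. After novelty every control library (169.9 to 207.4 CPM) lay above every cKO library (134.4 to 160.3 CPM), while the naive ranges overlapped. The interaction was -0.34 (SE 0.08, 95% interval -0.51 to -0.17). It was -0.16 among libraries numbered 1 to 3 and -0.50 among those numbered 4 and above. Pla2g7 lies near Mut (40934685 to 40961989) and Enpp4 (44096308 to 44105809) on chromosome 17. The values of these neighbours may therefore not be independent, which was not tested.

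Ppp1r16b, which encodes a regulatory subunit of protein phosphatase, rose in controls (1.22-fold, edgeR adjusted p = 0.00925) and had 0.998-fold in cKO mice, with an interaction of -0.29 (-0.46 to -0.12). Ppp1r16b measured 129.0 to 148.0 CPM in control naive and 153.5 to 176.9 CPM in control novelty libraries, which did not overlap, against 127.5 to 154.1 and 117.0 to 150.0 CPM in cKO mice, which did. Farp2, a guanine nucleotide exchange factor gene, also rose in controls (1.21-fold, edgeR adjusted p = 0.0136; interaction -0.29). Steap3, a metalloreductase gene (-0.49), Enpp4 (-0.46), the ATP-gated channel gene P2rx4 (-0.34), Tmtc1 (-0.23) and Aimp1 (-0.22), a scaffold gene of the tRNA synthetase complex, make up the rest. For Pla2g7, Enpp4, P2rx4, Steap3 and Tmtc1 neither response passed in edgeR, and the control estimate was above and the cKO estimate below 1-fold. Aimp1 fell in cKO mice (0.897-fold, edgeR adjusted p = 0.0409).

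**Figure D5:**
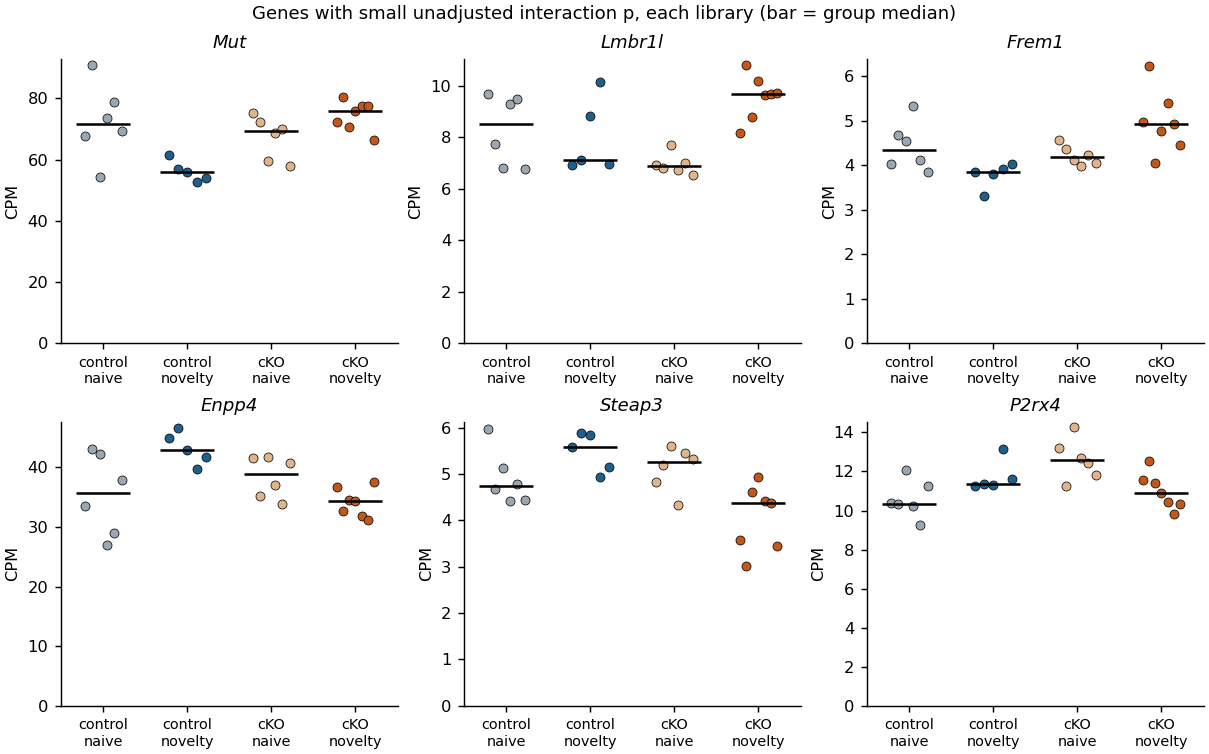
CPM in each library (linear axes from 0) for 3 genes with a positive interaction (Mut, Lmbr1l, Frem1) and 3 with a negative one (Enpp4, Steap3, P2rx4) in the 4 groups, 1 point per library, with the group median as a bar. The differences between groups are small beside the levels, and Mut separates the 2 novelty groups, at 52.5 to 61.5 CPM in controls and 66.3 to 80.4 CPM in cKO mice.

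Median interactions of the cell type marker lists ran from -0.54 to 1.35, with wide intervals in several lists. CA1 pyramidal markers, all 6 of which were measured, had a median interaction of -0.06 and list levels (mean log2 CPM over the members) of 6.74 to 7.30 over the 24 libraries. All 6 oligodendrocyte markers had negative interactions (median -0.17), with list levels after novelty of 7.95 to 8.23 in controls and 7.43 to 8.33 in cKO mice, and naive levels of 8.08 to 8.20 and 7.80 to 8.24. All 6 markers of dentate granule cells, a neighbouring field, were negative as well (median -0.32), at 3.82 to 5.03 after novelty in controls and 3.17 to 4.52 in cKO mice. The 3 ependyma markers were positive (median 1.35), at -0.19 to 1.26 after novelty in controls and 0.43 to 2.32 in cKO mice. Choroid plexus markers, 4 of 6 tested, had a median of 0.89 and red blood cell markers, 3 of 3, a median of -0.54. Median half-widths were 0.326 for oligodendrocyte, 0.871 for dentate and 1.75 for ependyma markers. They were 1.55 for choroid plexus and 0.709 for red blood cell markers. Median interactions were 0.09 for CA2 and CA3 and 0.18 for subiculum markers. They lay from -0.03 to 0.06 for interneuron, astrocyte, oligodendrocyte precursor, microglia, and endothelium and pericyte markers. None of these markers passed for the interaction in edgeR, 1 had an unadjusted p below 0.05 (the hemoglobin gene Hbb-b1), and their part in the values given above was not tested.

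The closest measurements among genes that respond to novelty show what the data can exclude. Golgb1, a Golgi scaffold gene, ranged from 166.9 to 179.5 CPM in control naive and from 169.3 to 179.6 CPM in cKO naive libraries. Golgb1 had medians of 182.0 CPM in controls and 193.0 CPM in cKO mice after novelty. Its interaction of 0.08 (-0.01 to 0.17) allows a cKO fold change of 0.991 to 1.12 times the control fold change. That does not show log2 responses of like size, since these were small. Golgb1 changed by 0.071 in controls (edgeR adjusted p = 0.38) and by 0.147 in cKO mice (edgeR adjusted p = 0.00351). Mphosph8 (0.08, -0.01 to 0.17), the splicing factor gene Prpf6 (-0.05, -0.14 to 0.04) and Tollip (-0.02, -0.12 to 0.07) had intervals as narrow. Among the genes that rose with the smallest p, P4ha1, a collagen hydroxylase gene, rose 1.38-fold and 1.44-fold in controls and cKO mice (interaction 0.07, -0.08 to 0.22), and Dnajb5, a co-chaperone gene, 1.5-fold and 1.48-fold (-0.03, -0.20 to 0.15). The genes that fell with the smallest p fell in both genotypes: the purinergic receptor gene P2ry13 to 0.793-fold and 0.720-fold, Plekho2 to 0.762-fold and 0.667-fold, Notch1 to 0.789-fold and 0.768-fold, Gas1 to 0.787-fold and 0.713-fold, and the potassium channel gene Kcna4 to 0.811-fold and 0.764-fold. The widest intervals were those of Egr2, Fos, Junb and 1700016P03Rik (0.51, -0.32 to 1.34).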

How the data were processed

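The 24 libraries are bulk RNA sequencing of dissected CA1, made with an unstranded kit, so reads from a gene and an antisense partner cannot be told apart. The deposited count tables hold whole-number read counts for 38355 genes per library. STAR 2.3.0, HTSeq, DESeq2 and GRCm38.p2 are named per the submitters' processing notes, which do not give their roles. The authors' deposited comparison tables, with base mean signal, ratio and log2 fold changes and p-values, supplied only gene names, coordinates and biotypes. The 5 summary entries of each count table, which name no gene, were left out; reads that mapped to several places were 14.8% to 18.0% of each table's total.

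Counts were filtered with filterByExpr (minimum count 10), scaled by TMM and fitted with edgeR 4.0.16 quasi-likelihood tests in R 4.3.3, with 1 mean per group over all 24 libraries and no covariate. The interaction was the cKO novelty effect minus the control novelty effect. Equivalence within 1.5-fold used 2 one-sided tests on the same fit, adjusted by Benjamini-Hochberg. DESeq2 1.42.0 and limma 3.58.1 were alternatives. The procedure was tested on simulated data. Same-numbered libraries correlated no more than other pairs in the median (0.003 against 0.004). The labels do not explain the numbers, and the numbers were not treated as pairs.

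The comparison, the gene lists and the tests were chosen with earlier results of these data known. Named genes are Kat2a; the 8 smallest interaction p in each direction among genes with a mean count of at least 50; the 8 genes that rose and 5 that fell with the smallest p in the novelty average; the 4 narrowest and 4 widest intervals among responders; and from each list up to 3 members by novelty p and up to 2 by interaction p. Arc, Nr4a1, the first Supt20 model and members named outside this rule were chosen after their values were seen. Promoter windows came from RefSeq (GRCm38.p6) and were matched by symbol for 11192 of 16744 tested genes.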

Additional observations from a re-analysis of the deposited data

Results flagged for a closer look

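Among 37 genes, 148 combinations of gene and group were examined for a library far from the rest of its group, and 9 were found; chance gives about 1 in 20. Npas4 in cKO naive library 3 was the highest of its group at 10.82 CPM (next 5.218), and Fos in control naive library 4 was the highest at 5.777 CPM (next 3.337). Homer1 in control naive library 2, the shallowest library, measured 156.9 CPM (next 130.7). Klf9 in cKO naive library 5 measured 171.2 CPM (next 141.8), P4ha1 in cKO naive library 1 51.43 CPM, Aimp1 in control novelty library 5 64.43 CPM and P2rx4 in control novelty library 4 13.14 CPM, each the highest of its group. The second Supt20 gene model was the lowest of its group in cKO naive library 6 (18.03 CPM) and in cKO novelty library 3 (18.1 CPM).

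For 4 genes named for a small interaction p, the control novelty libraries all lay on one side of the naive mean of their genotype and the cKO novelty libraries all on the other: Pla2g7 (interaction -0.3386), Enpp4 (-0.4616), P2rx4 (-0.3424) and Steap3 (-0.4939). A choice by small interaction p favours such a pattern, and its share over all genes was not computed. The difference itself was tested for each and had an edgeR adjusted p of 1.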

How the results depend on the processing

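The interaction had 0 passing genes under every alternative run, DESeq2 and limma-voom included. The smallest adjusted p over them was 0.0549, from edgeR among libraries numbered 4 and above. Genes at an unadjusted p below 0.05 numbered 1170 with no filter on low counts and 1282 with limma-voom with library quality weights, an alternative chosen after seeing the data, which also gave 614 novelty genes in controls. Libraries numbered 1 to 3 alone, and those numbered 4 and above alone, gave 206 and 369 novelty genes in the average, 50 and 48 in controls and 30 and 168 in cKO mice; each has fewer libraries. A bound of 0.32 on the log2 scale placed 8137 genes. Among genes changed over 1.5-fold, 62.0% of those higher and 38.9% of those lower had a larger effect in cKO mice. Leaving out 1 library at a time gave 0 interaction genes in each fit, 559 to 906 at an unadjusted p below 0.05, 12480 to 12680 within 1.5-fold, 850 to 1262 novelty genes in the average, 158 to 313 in controls (183 without control novelty library 5) and 345 to 609 in cKO mice. The effect was larger in cKO mice for 49.4% to 60.9% of genes higher and 37.6% to 52.3% of genes lower, with median interactions of -0.0017 to 0.022 and -0.007 to 0.0446. The replicate block gave 0 interaction genes, 823 at an unadjusted p below 0.05, 12626 within 1.5-fold, and 1070, 309 and 419 novelty genes in the average, controls and cKO mice. Same-numbered pairs correlated at -0.128 to 0.316 (median 0.003, against 0.004 for other pairs), 7 of 33 over 0.1. For 6 libraries the best correlation was with their own number. The median was 0.032 for pairs within libraries numbered 1 to 3 or within those numbered 4 and above, and -0.021 across these sets. Such correlations do not show what a number marks. Depth limits genes under 50 reads, of which 13.6% could be placed within 1.5-fold.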
